A study of Mus musculus with 60 samples.

Results

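Mitosis genes are a set of 40 genes whose products condense, align and separate the chromosomes and then divide the cell. They were chosen by name, and each was read from the probe set with the highest mean among those that the platform's gene table assigned to that gene alone. Of the 40 genes, 39 were found and tested, among 12635 genes tested on the array. The cyclin gene Ccnb1 was not analysed here. The filter on low values removed none of the 39, since 38 lay above the array median on all 60 arrays and Dlgap5 did so on 59.

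The cells were Balb/c 3T3, a mouse fibroblast cell line that ceases to divide in a crowded dish. They were treated once they covered 60 to 65% of the dish, and control dishes received 0.75% DMSO. In approach 1 the concentrations were taken from the literature and were the same at 24 h and at 120 h. The aromatic amide 2-acetylaminofluorene (AAF) was given at 25 µM and the polycyclic hydrocarbon benzo(a)pyrene (BaP) at 0.5 µM. The aromatic diamine 2,4-diaminotoluene (DAT) was given at 50 µM and the polycyclic hydrocarbon 3-methylcholanthrene (MCA) at 2 µM. In approach 2 the concentrations were those labelled IC20, set for each time. Cells received AAF at 10 µM at either time, BaP at 1.5 µM for 24 h or 0.1 µM for 120 h, DAT at 700 µM for 24 h or 0.2 µM for 120 h, and MCA at 20 µM for 24 h or 0.1 µM for 120 h. DMSO cultures were kept separately for either approach and time, so that 20 groups with 3 arrays apiece were available. The labels do not say whether the 3 arrays of a group came from separate cultures, so p-values measure the spread between these arrays.

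In a dividing cell the genes of mitosis are switched on together late in the cycle. Cyclin-dependent kinase 1 and its cyclins start the process, the Polo and Aurora kinases build the spindle, the kinetochore ties chromosomes to it, and a checkpoint holds the cell back until all are attached. Transcription of many of these genes is driven by B-Myb and FoxM1 and is shut off in resting cells by the DREAM complex, which binds short elements close to the start site. In a culture that fills its dish, fibroblasts leave the cycle and these transcripts decline. From bulk RNA, fewer dividing cells and less RNA per dividing cell cannot be told apart.

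Values are the deposited intensities, which rise with the amount of RNA bound to a probe set and are not comparable between genes. Differences are in log2(intensity + 16) after quantile normalization within an approach, given with their standard error. They were tested with limma over 30 arrays of an approach, with a two-sided threshold of 0.05 on the p-value adjusted over all 12635 genes. Intensities of both approaches were not on 1 scale, with array medians running from 41.2 to 47.1 in approach 1 but from 56.3 to 98.9 in approach 2, so no level or difference was tested between them. Arrays of approach 2 spread more, with a median residual SD of the 39 genes of 0.200 against 0.116. The culture was checked with cell type markers. All 11 fibroblast markers were tested, and their summed intensity ran from 37740 to 194147 over the 60 arrays. Of 5 endothelial markers 0 passed the filter, and their sum ran from 39.7 to 187. Of 5 macrophage markers 3 passed, with a sum of 165 to 355. Csf1r lay above the array median on 59 arrays, Adgre1 on 29 and Cd68 on 23, while Ptprc and Itgam did so on 0. Of 5 epithelial markers 2 passed, Epcam on 53 arrays and Krt8 on 13, with a sum of 129 to 406.

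From 24 h to 120 h in DMSO alone, every one of the 39 mitosis genes fell, in both approaches. The median difference was -2.21 on the log2 scale in approach 1, where 28.5% of all genes tested were lower, and -1.77 in approach 2, where 22.4% were lower. The median of all genes was 0.00 and -0.05. The highest adjusted p among the 39 was 6.55e-14 and 0.000602.

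Cdk1, the kinase that drives entry into mitosis, had intensities of 2624, 2295 and 2565 at 24 h and of 574, 679 and 609 at 120 h in the DMSO arrays of approach 1. In approach 2 it had 7693, 6738 and 8406 at 24 h and 1855, 2088 and 2525 at 120 h. The 24 h and 120 h arrays did not overlap in either approach. The difference was -1.94 ± 0.07, a 3.82-fold fall and the smallest of the 39 in approach 1, and -1.65 ± 0.11 in approach 2. Its cyclin partners fell further, Ccnb2 by 2.35 ± 0.10 and 1.77 ± 0.17 and Ccna2 by 2.25 ± 0.07 and 1.92 ± 0.12, on the log2 scale, in approach 1 and 2.

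Bub1, a checkpoint kinase at the kinetochore, had intensities of 913, 888 and 934 at 24 h and of 113, 135 and 131 at 120 h in approach 1. It showed the deepest fall of the 39 there, -2.72 ± 0.08 or 6.57-fold. In approach 2 its intensities were 2823, 3229 and 3066 at 24 h and 632, 782 and 944 at 120 h, a difference of -1.94 ± 0.12. A second, dimmer Bub1 probe set gave only -0.17 in approach 1 and -0.70 in approach 2. The other checkpoint genes were Ttk at -2.44 ± 0.13, Bub1b at -2.29 ± 0.07 and Mad2l1 at -2.18 ± 0.07 in approach 1.

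The fall was shared across roles and spanned a narrow range. In approach 1 the median of a role ran from -2.36 for the 4 spindle checkpoint genes and -2.35 for the 4 genes of the chromosomal passenger complex (Aurkb, Birc5, Incenp and Cdca8), which corrects faulty attachments, to -2.05 for Top2a, the topoisomerase that untangles sister chromatids. Between these lay the 6 centromere and kinetochore genes at -2.19, the 5 spindle motors at -2.24 and the 3 cytokinesis genes at -2.10. In approach 2 the passenger complex had the lowest median, -2.04, and Top2a the highest, -1.48. The widest fall there was that of Dlgap5, a spindle assembly factor, at -2.32 ± 0.31 or 5.00-fold, and the narrowest that of Ect2, which activates the contractile ring, at -1.23 ± 0.27 or 2.35-fold. Dlgap5 also varied most between arrays there, since its standard error was the largest of the 39.

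Further mitosis genes outside the 40 moved in the same direction. Of 66 listed, 62 were tested, and all 62 were lower at 120 h in both approaches, with medians of -2.11 and -1.59. The range ran from the centromere gene Cenpi at -2.65 in approach 1 to Cdc27, a core subunit of the anaphase-promoting complex, at -0.41 in approach 1 and -0.32 in approach 2. The transcription factor gene Foxm1 fell by 2.12 ± 0.08 and 2.01 ± 0.23, and Mybl2, which encodes B-Myb, by 1.98 ± 0.10 and 2.02 ± 0.17. Cdkn1a, the gene of the cell cycle inhibitor p21, rose by 0.84 ± 0.09 and 1.26 ± 0.23.

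RNA quality and marker sums moved with time. The log2 ratio of the 3' to the 5' actin probe set was 0.29 ± 0.07 at 24 h and 0.54 ± 0.12 at 120 h (SD, n = 3) in the DMSO arrays of approach 2. In approach 1 it was 0.29 ± 0.04 and 0.31 ± 0.02. The same ratio for Gapdh went from -0.28 to -0.18 in approach 1 and from -0.32 to -0.46 in approach 2, and the times did not overlap in either. The epithelial sum was 177 to 235 at 24 h and 270.4 to 290.3 at 120 h in approach 1, and 129 to 213 and 278 to 316 in approach 2. The fibroblast sum went from 39056 to 41980 at 24 h to 55966 to 60650.3 at 120 h in approach 1 and overlapped between the times in approach 2. The part of these values in the fall was not tested. With the arrays centred on their median instead of quantile normalized, the median of all genes shifted to -0.35 in approach 2 and that of the 39 to -2.31. Without normalization these medians were 0.11 and -1.85.

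**Figure D1:**
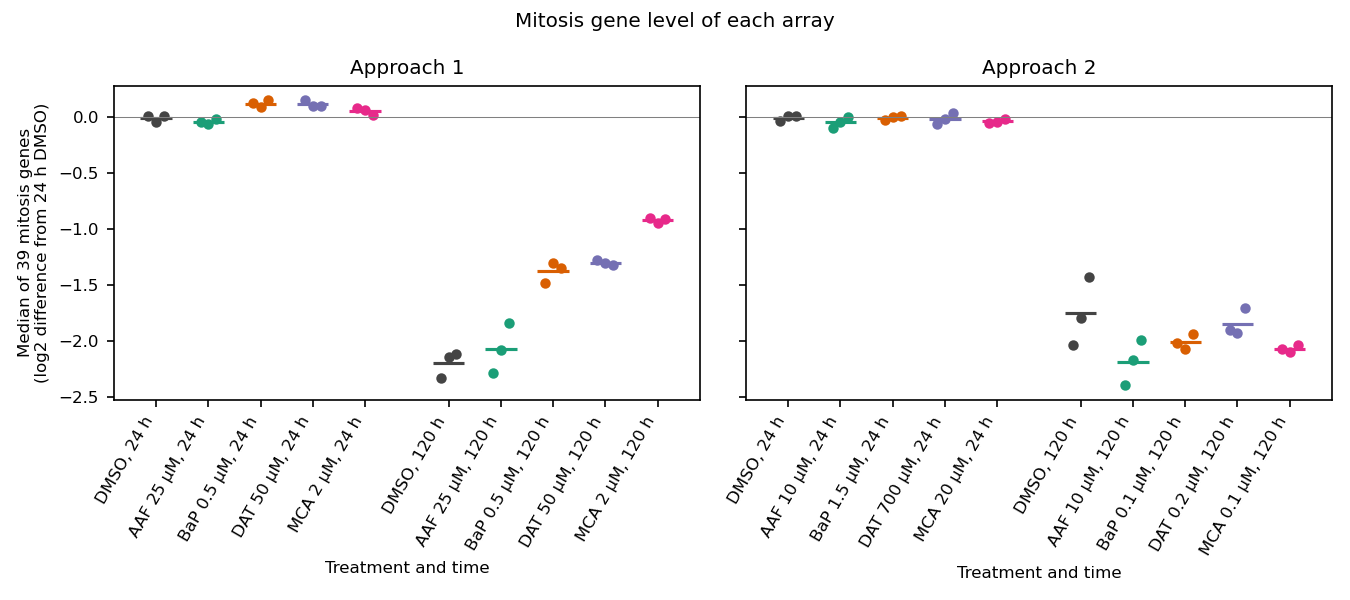
Each point is 1 array, the vertical axis is the median over 39 mitosis genes of the log2 difference from the mean of the 24 h DMSO arrays of the same approach, and the lines are group means of 3 arrays. All 24 h groups sit between -0.09 and 0.15, while the DMSO arrays of 120 h run from -2.33 to -2.11 in approach 1 and from -2.04 to -1.42 in approach 2.

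Because these genes fell together, their promoters were searched for the 2 short elements known to control them. RefSeq windows of 250 bases before to 50 after the start site, on build GRCm38.p6, were given for 32 of the 39 genes. The cell cycle homology region (CHR), bound by DREAM and B-Myb complexes, was searched as TTTGAA and as TTCGAA, and the box of the factor NF-Y as CCAAT, each on both strands. TTTGAA was found in 24 of the 32 windows, or 75.0%, against 18.1% of the first listed windows of 27025 genes. TTCGAA was found in 3 windows, or 9.38%, against 1.57%, and CCAAT in 25 windows, or 78.1%, against 37.9%. Windows with a CHR form and a CCAAT made up 68.8% of the 32 and 7.70% of all. Of the 95 matches in the members' windows, 2 pairs overlapped. A match is a description of these letters and not a shown binding site.

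The stretches from 120 bases before to 30 after the start site are shown for 6 genes on which the results below turn, all on the minus strand, with capitals marking the matches. They are Cdk1 at chr10:69352883-69353032, Ccnb2 at chr9:70421525-70421674, Cdc20 at chr4:118437314-118437463, Bub1 at chr2:127831830-127831979, Hmmr at chr11:40733408-40733557 and Top2a at chr11:99024160-99024309. A match on the other strand reads TTCAAA or ATTGG.
Cdk1: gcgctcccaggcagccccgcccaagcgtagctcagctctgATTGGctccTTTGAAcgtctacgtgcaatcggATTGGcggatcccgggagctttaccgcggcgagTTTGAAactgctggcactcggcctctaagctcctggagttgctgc
Ccnb2: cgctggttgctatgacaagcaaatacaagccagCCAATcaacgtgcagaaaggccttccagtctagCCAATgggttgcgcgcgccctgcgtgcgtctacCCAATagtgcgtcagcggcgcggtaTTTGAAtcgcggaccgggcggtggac
Cdc20: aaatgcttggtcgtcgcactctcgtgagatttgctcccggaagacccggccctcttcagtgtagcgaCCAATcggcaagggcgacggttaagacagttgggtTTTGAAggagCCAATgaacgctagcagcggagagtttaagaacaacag
Bub1: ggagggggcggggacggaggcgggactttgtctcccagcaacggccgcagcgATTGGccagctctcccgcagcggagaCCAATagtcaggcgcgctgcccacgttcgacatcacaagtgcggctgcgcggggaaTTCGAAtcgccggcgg
Hmmr: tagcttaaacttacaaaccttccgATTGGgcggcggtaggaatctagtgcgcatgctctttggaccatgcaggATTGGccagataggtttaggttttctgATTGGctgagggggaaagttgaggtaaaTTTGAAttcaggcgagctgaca
Top2a: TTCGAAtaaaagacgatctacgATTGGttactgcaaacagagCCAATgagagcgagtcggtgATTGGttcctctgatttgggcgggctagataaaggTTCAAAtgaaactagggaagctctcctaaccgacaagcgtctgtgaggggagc
Cdk1 holds 2 copies of TTTGAA in this stretch and Bub1 has TTCGAA alone. Top2a holds both forms and 3 copies of CCAAT or its reverse. Of the 25 windows with a CHR form, 24 had a match that began between 30 bases before and 50 after the start site. The 7 windows with neither CHR form were those of Birc5, Cenpe, Cks2, Mad2l1, Nek2, Nuf2 and Nusap1, and these genes fell as the others did, from -1.94 for Cks2 to -2.42 for Birc5 in approach 1.

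**Figure D2:**
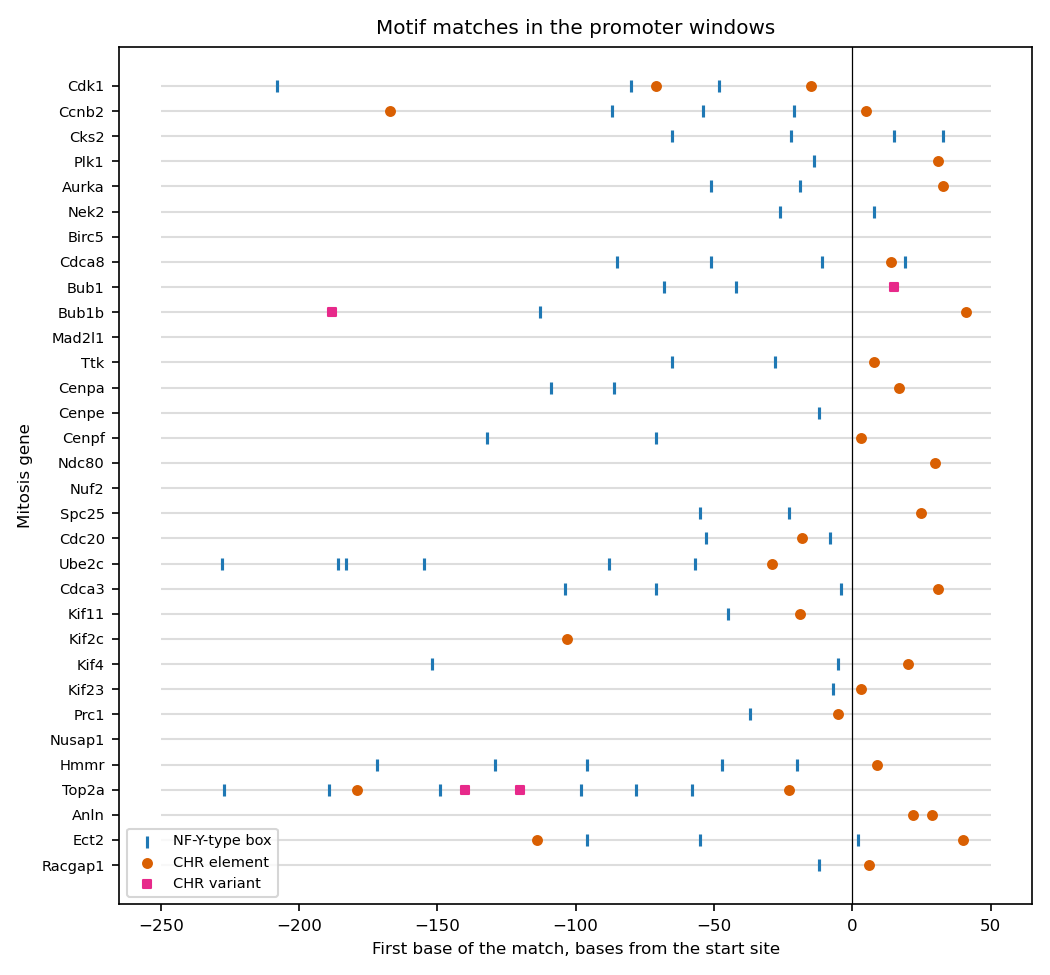
Each row is the promoter window of 1 of 32 mitosis genes, the horizontal axis is the distance in bases from the annotated start site, and the symbols mark the first base of each match to a CHR form or to the NF-Y-type box. The CHR matches gather at the start site in 24 of the 25 windows that hold one, and the boxes lie mostly before them.

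At 24 h the medians of the 39 genes lay near the DMSO level with the 4 literature concentrations. BaP at 0.5 µM gave a median difference of 0.13 with 36 of 39 genes above zero, and 2 genes passed the test, where 4.52% of all genes tested were higher. MCA at 2 µM gave a median of 0.05 and 1 gene passed, against 1.08% of all genes. AAF and DAT gave medians of -0.05 and 0.11 and 0 genes passed in limma, against 0.910% and 0.174% of all genes in either direction. At an unadjusted p under 0.05 the counts were 1 for AAF and 6 for DAT, against 1503 and 1314 of the 12635 genes tested. With the replicate number as a block the counts past the threshold stayed at 0. For BaP and MCA the unadjusted counts were 12 and 4, against 2743 and 1438 of the 12635 genes tested. Of 62 further mitosis genes, 13 were higher past the threshold with BaP, against 4.52% of all genes, and 2 with MCA, against 1.08%. With AAF and DAT 0 of the 62 passed. With BaP 55 of the 62 lay above zero, and their median was 0.17.

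The gene that passed with both hydrocarbons was Top2a. Its 24 h intensities in approach 1 were 2832, 2678 and 2664 with DMSO, 3567, 3360.4 and 3494 with BaP, 3230.1, 3205 and 3396 with MCA, 3185, 2903 and 2982 with DAT and 2617, 2644 and 2619 with AAF. The arrays of BaP, MCA and DAT all lay above the 3 DMSO arrays, and those of AAF all below. The differences were 0.39 ± 0.06 for BaP (adjusted p = 3.06e-05) and 0.28 ± 0.06 for MCA (adjusted p = 0.00560). DAT gave 0.14 ± 0.06 (adjusted p = 0.392). The second gene with BaP was the checkpoint gene Bub1b, at 0.21 ± 0.07 (adjusted p = 0.0428), with intensities of 866, 794 and 841 in DMSO and 1008, 938 and 1010.3 with BaP. The groups did not overlap, but the call for Bub1b was lost when any of the 6 arrays was left out. The call for Top2a with MCA was lost without DMSO replicate 3 (adjusted p = 0.0526). With the replicate block 5 genes passed for BaP, where 8.37% of all genes were higher, among them Cenpf at 0.26, Cenpa at 0.14 and Ube2c at 0.24.

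Top2a is read by 3 probe sets, and they did not move alike. The one used here was the brightest, and a second gave 0.30 for BaP and 0.19 for MCA, while the last gave -0.05 and -0.03. That last probe set differed by only -0.14 between 120 h and 24 h in DMSO, against -2.05 and -2.67 for the others. With the mean of the 3 the adjusted p was 0.0593 for BaP and 0.454 for MCA.

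At 120 h, 3 of the 4 literature concentrations left every mitosis gene higher than in DMSO. BaP at 0.5 µM gave 39 of 39 genes higher, with a median difference of 0.82, where 13.8% of all genes tested were higher. DAT at 50 µM gave 39 of 39 with a median of 0.92, against 11.7% of all genes, and MCA at 2 µM gave 39 of 39 with a median of 1.27, against 18.9%. The highest adjusted p among the 39 was 0.00323, 0.000168 and 2.11e-08. The 3 comparisons share their DMSO arrays, so the 3 counts are not independent. The median of all genes was between -0.02 and -0.01 in each.

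The levels stayed below those of 24 h. Measured from the 24 h DMSO arrays, the median of the 39 genes was -2.33 to -2.11 on the DMSO arrays at 120 h, -1.48 to -1.30 on the BaP arrays, -1.32 to -1.28 on the DAT arrays and -0.95 to -0.90 on the MCA arrays. The 3 treated groups therefore lay between the DMSO level of 120 h and that of 24 h, and none of their arrays overlapped with DMSO. AAF arrays ran from -2.28 to -1.84 and overlapped with DMSO.

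Cdk1 read 574, 679 and 609 with DMSO, 1087, 1268 and 1056 with BaP, 1289.6, 1074 and 1205 with DAT and 1611, 1670.4 and 1541 with MCA. The lowest treated array stood well above the highest DMSO array. The differences were 0.86 ± 0.07, 0.94 ± 0.07 and 1.33 ± 0.07. Its partner Ccnb2, a B-type cyclin, read 203, 260.2 and 271 with DMSO, 454, 533 and 444 with BaP, 643, 547 and 604 with DAT and 814, 858 and 808 with MCA. Ccnb2 had the largest rise of the 39 with DAT, 1.28 ± 0.10 or 2.44-fold, and with MCA, 1.70 ± 0.10 or 3.24-fold. Cks2, a small subunit of the same kinase complex, had the smallest rise with BaP, 0.45 ± 0.11 or 1.37-fold (adjusted p = 0.00323).

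Among the mitotic kinases outside the checkpoint, Aurka, which matures the spindle poles, read 148, 178 and 176 with DMSO and 342, 395 and 333 with BaP, 385, 292 and 312 with DAT and 424, 448 and 440.2 with MCA. No treated array overlapped with DMSO, and the difference was 0.97 ± 0.09 with DAT and 1.33 ± 0.09 with MCA. Plk1, the Polo kinase, rose by 0.66, 0.83 and 1.16 and Nek2, a centrosome kinase, by 1.08, 0.90 and 1.43, each with a standard error of 0.09. Pbk, a kinase active in mitosis, rose by 0.71, 0.96 and 1.53 with BaP, DAT and MCA.

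In the chromosomal passenger complex, the kinase gene Aurkb read 80.3, 106 and 118 with DMSO, 159.6, 185 and 177 with BaP, 198, 157 and 219 with DAT and 311, 308 and 328 with MCA. The MCA arrays lay above every BaP and DAT array. Aurkb rose by 0.68 ± 0.10, 0.89 ± 0.10 and 1.56 ± 0.10. Birc5, which encodes the survivin subunit, rose by 0.78, 1.08 and 1.54, each ± 0.09. The scaffold gene Incenp rose by 0.81, 0.67 and 0.84, each ± 0.08, and was the lowest of the 4 with MCA.

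The 4 spindle checkpoint genes had the lowest role medians with DAT and MCA, 0.81 and 1.05. Mad2l1, whose product holds back Cdc20, read 306, 374 and 376 with DMSO, 532, 609.9 and 582 with BaP, 547, 427 and 512 with DAT and 582, 653 and 610.1 with MCA. It was the least changed of the 39 with DAT, 0.51 ± 0.07 or 1.42-fold, and with MCA, 0.77 ± 0.07 or 1.71-fold. Bub1b read 142, 172 and 162 with DMSO, 352, 435 and 346 with BaP, 317, 229.7 and 285 with DAT and 276, 305 and 296 with MCA. The BaP arrays were the highest for this gene, at 1.14 ± 0.07, against 0.79 ± 0.07 and 0.85 ± 0.07.

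The 6 centromere and kinetochore genes had medians of 0.89, 0.91 and 1.29 with BaP, DAT and MCA. Cenpf, a large kinetochore protein gene of late cell cycle, rose by 1.21, 1.13 and 1.32, each ± 0.09, and Cenpa, the centromeric histone gene, by 0.79, 0.66 and 0.94, each ± 0.05. The microtubule-binding Ndc80 complex was read by 3 genes. Ndc80 rose by 0.95, 0.82 and 1.27, and Nuf2 by 0.82, 0.92 and 1.44, while Spc25 rose by 0.79 with BaP and 1.43 with MCA.

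For mitotic protein degradation, Cdc20, the activator that lets anaphase begin, rose by 0.73, 1.02 and 1.37, each ± 0.09, and Ube2c, the ubiquitin-conjugating enzyme of the same complex, by 0.95, 1.08 and 1.51, each ± 0.11. The 5 spindle motor genes had medians of 0.89, 0.93 and 1.21. Kif11, the motor that pushes the poles apart, rose least with BaP among them, at 0.57 ± 0.07, and Kif2c, which shortens microtubules at the kinetochore, most, at 1.09 ± 0.11. The cytokinesis gene Anln, an actin-binding scaffold of the contractile ring, rose by 0.86, 1.10 and 1.68, each ± 0.13.

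Members differed in how their rise was spread over the chemicals, as Hmmr and Top2a show. Hmmr, a spindle protein gene, read 131, 158 and 163 with DMSO, 209.6, 244 and 241 with BaP, 337, 307 and 381 with DAT and 473, 493 and 559 with MCA. The 4 groups did not overlap, and the differences were 0.53 (95% interval 0.30 to 0.75) with BaP, 1.17 (0.94 to 1.39) with DAT and 1.68 (1.46 to 1.91) with MCA. Top2a read 579, 658 and 650.4 with DMSO, 1749, 1862 and 1753 with BaP, 1376, 1083 and 1256 with DAT and 1491, 1470.5 and 1420.0 with MCA. Here the BaP arrays were the highest, and the differences were 1.51 (1.39 to 1.63), 0.98 (0.86 to 1.10) and 1.17 (1.05 to 1.29). Top2a had the largest rise of the 39 with BaP, 2.84-fold. Hmmr is read by 5 probe sets. A dimmer one gave only 0.45, 0.54 and 0.60 with BaP, DAT and MCA. The others gave 0.41 to 0.53 with BaP and 1.68 to 1.83 with MCA. The second Top2a probe set gave 1.34, 1.06 and 1.13, and the last gave -0.08, -0.06 and 0.06. The highest of the 3 values was that with MCA for 37 genes and that with BaP for Bub1b and Top2a. The chemicals were given at different concentrations, and differences between chemicals or between members were not tested.

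**Figure D3:**
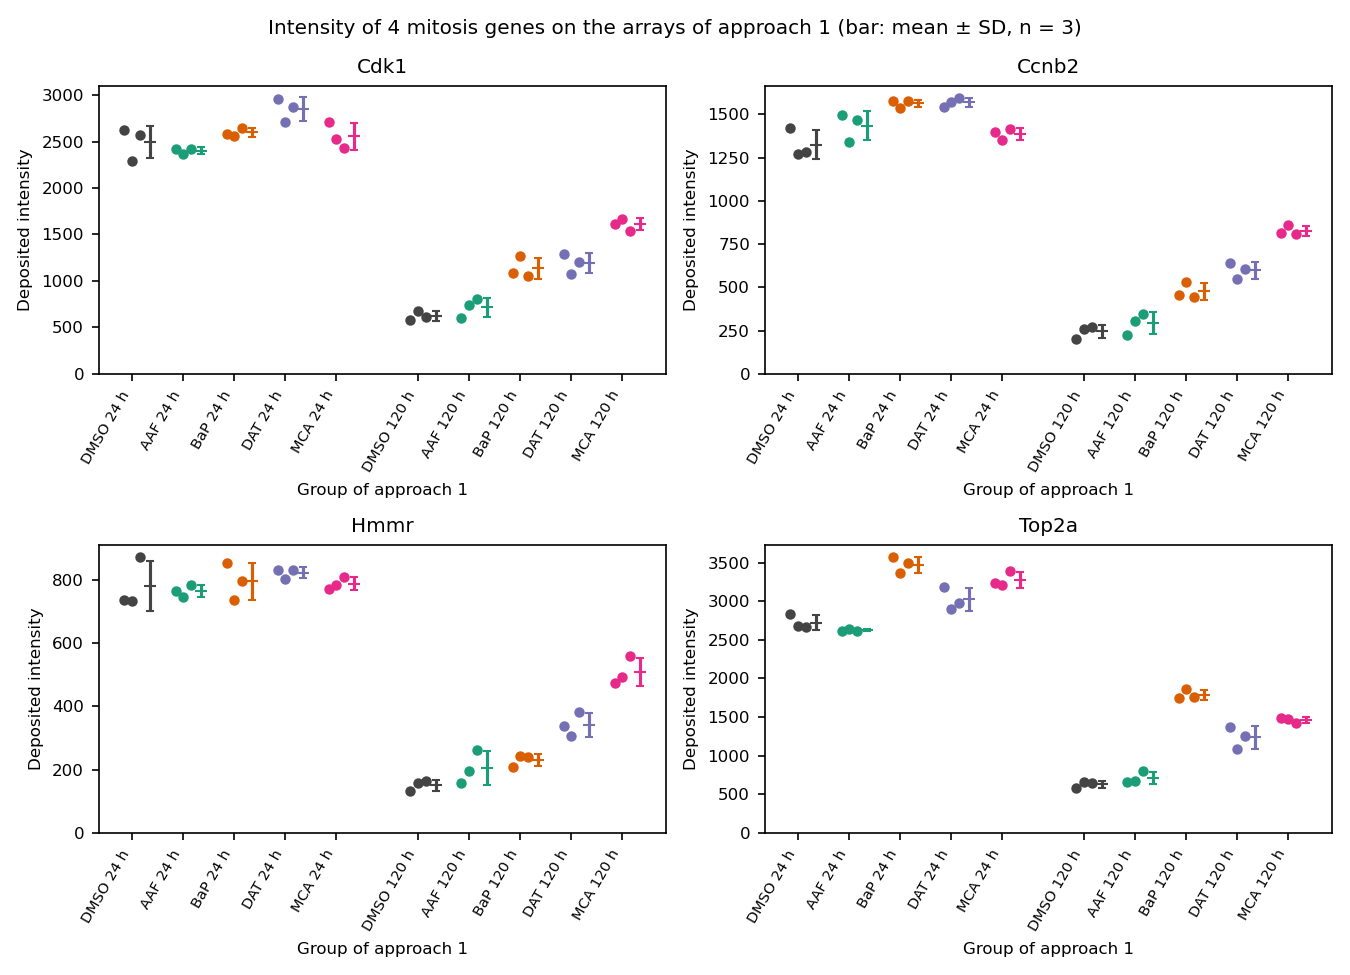
Points are the deposited intensities of single arrays of approach 1 for Cdk1, Ccnb2, Hmmr and Top2a, with the mean ± SD of 3 arrays beside them, on linear axes from 0. At 120 h the BaP, DAT and MCA arrays lie above the DMSO arrays, and above the AAF arrays except for BaP in Hmmr, with MCA highest for Cdk1, Ccnb2 and Hmmr and BaP highest for Top2a.

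AAF at 25 µM moved the 39 genes little at 120 h. The median difference was 0.15, all 39 lay above zero, and 1 gene passed, where 0.324% of all genes tested were higher. At an unadjusted p under 0.05 the count was 14, against 804 of the 12635 genes tested. Without AAF replicate 3 the median was 0.02 with 16 of 39 below zero, and without DMSO replicate 1 it was 0.07 with 8 below. Without AAF replicate 1 it was 0.25. The gene that passed was Cenpf, with 166, 196 and 187 in DMSO and 247, 258 and 258 with AAF, a difference of 0.40 ± 0.09 (adjusted p = 0.0442). The count was 0 when any of 5 of the 6 arrays was left out and 7 without AAF replicate 1. The share of all genes higher in those fits is not given here. With the replicate block the count was 2, where Hmmr joined at 0.34 and 0.863% of all genes were higher. The interval of Cdk1 with AAF ran from 0.00 to 0.30.

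The rise at 120 h was larger than the difference at 24 h for each of the 3 chemicals, tested as the change of response between the times. All 39 genes passed for BaP, DAT and MCA, with medians of 0.70, 0.83 and 1.25, where 5.03%, 4.91% and 14.8% of all genes tested were higher. For BaP the change ran from 0.40 ± 0.09 for Kif11 to 1.12 ± 0.08 for Top2a. For AAF 0 genes passed in limma in approach 1, against 0.0554% of all genes in either direction, with a median of 0.20. At an unadjusted p under 0.05 there were 10 genes, against 878 of the 12635 genes tested. With the replicate block 1 gene was higher, against 0.609% of all genes.

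The further mitosis genes rose beside them at 120 h, 57 of 62 with BaP, 56 with DAT and 59 with MCA. Of all genes tested, 13.8%, 11.7% and 18.9% were higher. The largest value was that of Depdc1b with MCA, 2.02 ± 0.15, and Spag5, a spindle and kinetochore gene, led with BaP at 1.31 ± 0.10. Lmnb1, a gene of the nuclear lamina, gave -0.33 ± 0.14 with BaP (adjusted p = 0.0825), 0.80 ± 0.14 with DAT and 1.06 ± 0.14 with MCA. Cdc27 and Zw10 passed with none of the 3. Foxm1 rose by 0.69, 0.45 and 0.73, each ± 0.08, and Mybl2 by 0.49, 0.48 and 0.83, each ± 0.10. E2f8, a repressor that peaks in dividing cells, rose by 0.80, 1.16 and 1.77, each ± 0.13. Cdkn1a rose with MCA by 0.31 ± 0.09 (adjusted p = 0.00600) and gave 0.18 ± 0.09 with BaP and 0.16 ± 0.09 with DAT.

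The actin 3' to 5' log2 ratio at 120 h was 0.31 ± 0.02 with DMSO, 0.37 ± 0.03 with AAF, 0.44 ± 0.06 with BaP, 0.33 ± 0.03 with DAT and 0.30 ± 0.03 with MCA (SD, n = 3). The AAF and BaP arrays all lay above DMSO in this ratio, while the DAT and MCA arrays overlapped with it. The epithelial sum was 212 to 255 with BaP against 270.4 to 290.3 with DMSO, and overlapped with DMSO for AAF, DAT and MCA. The fibroblast sum was 44273 to 48841 with BaP and 49321 to 51919 with MCA, all below the 55966 to 60650.3 of DMSO. The part of these values in the differences from DMSO was not tested. Over all 88 probe sets that name 1 of the 39 genes, 82 lay above zero with BaP, 82 with DAT and 85 with MCA.

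**Figure D4:**
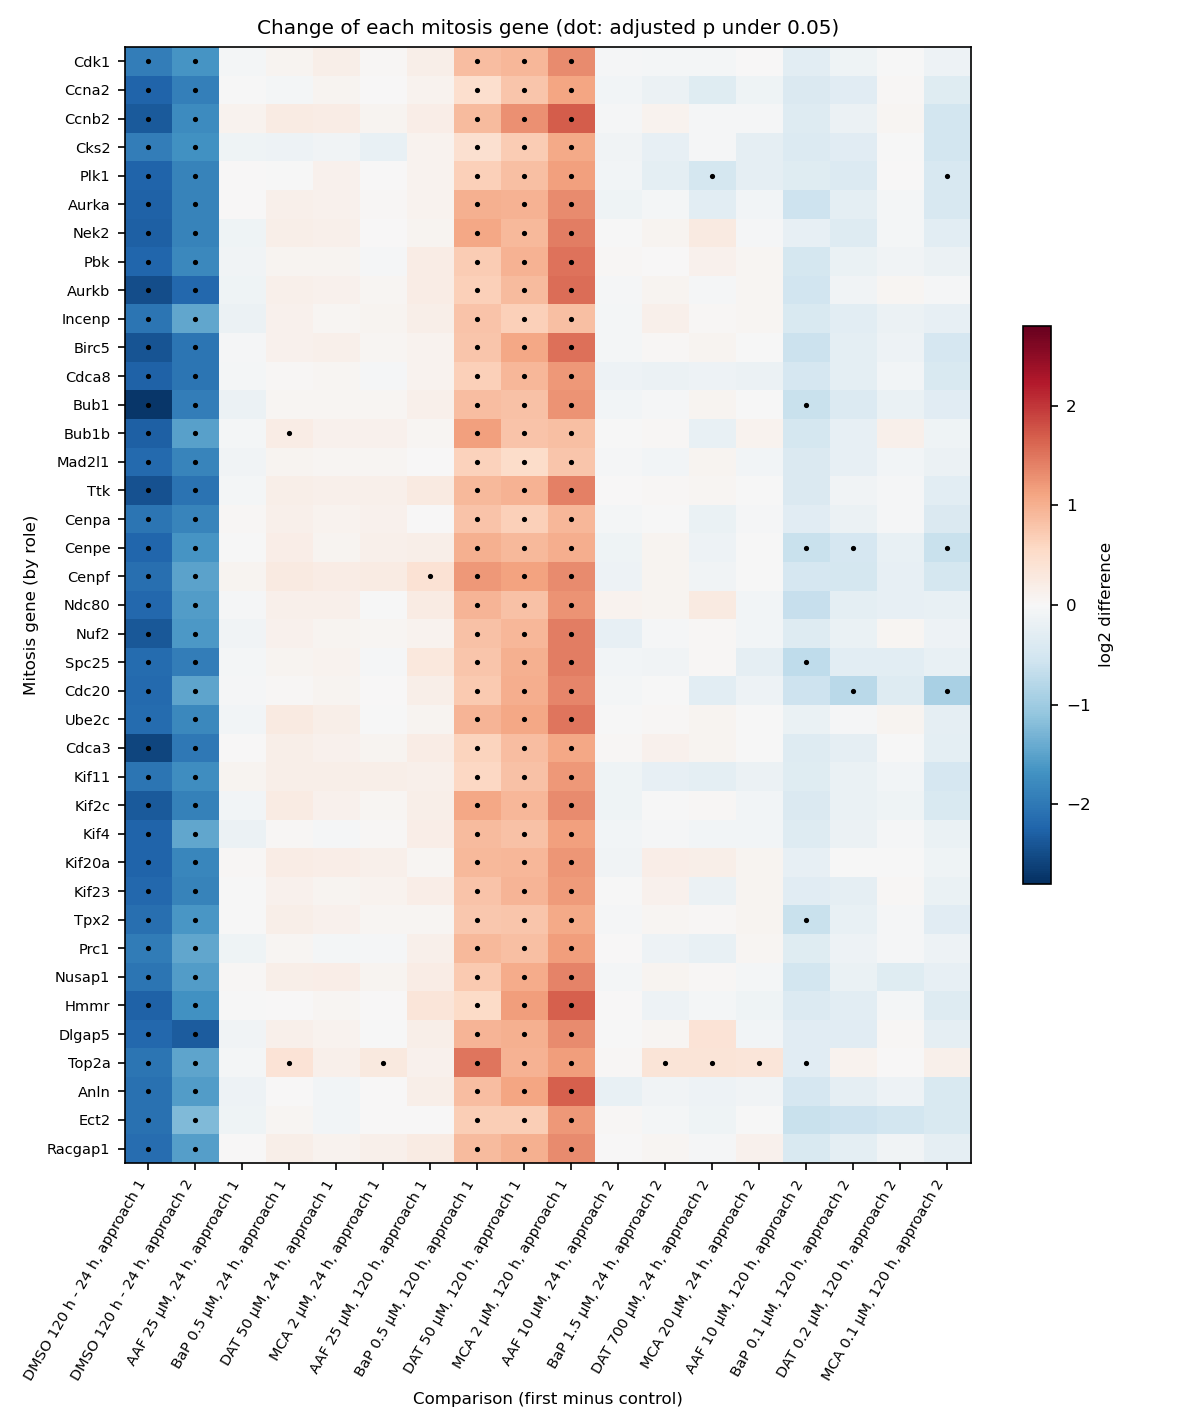
Rows are the 39 mitosis genes ordered by role, columns are the 2 time comparisons in DMSO and the 16 treatment comparisons, colour is the log2 difference from -2.8 to 2.8, and a dot marks an adjusted p under 0.05. Both time columns and the 3 columns of BaP, DAT and MCA at 120 h in approach 1 carry 39 dots each, and the other columns carry 5 or fewer.

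In approach 2 at 24 h, the IC20 concentrations again left most of the 39 genes near DMSO. AAF at 10 µM gave 0 genes past the threshold in limma, against 0.0237% of all genes in either direction, and 0 with the replicate block. At an unadjusted p under 0.05 it also gave 0, against 287 of the 12635 genes tested. BaP at 1.5 µM gave 1 higher gene against 1.20% of all genes, and MCA at 20 µM gave 1 against 0.625%. DAT at 700 µM gave 1 higher gene against 4.19% of all genes and 1 lower against 3.66%. The medians of the 39 were -0.04, 0.01, -0.03 and -0.03 for AAF, BaP, MCA and DAT.

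The higher gene was Top2a with all 3. Its intensities were 10278, 9249 and 9467 with DMSO, 11944, 11745 and 10939.7 with BaP, 12346, 11801 and 11127 with DAT and 12083, 12075 and 11443 with MCA. Every array of these 3 groups lay above the DMSO arrays, and the AAF arrays, at 10713, 9798 and 9321, overlapped with them. The differences were 0.36 ± 0.07 (adjusted p = 0.00440), 0.37 ± 0.07 (adjusted p = 0.00111) and 0.34 ± 0.07 (adjusted p = 0.0106). The second probe set gave 0.61, 0.40 and 0.60, and the last, which hardly moved with time in approach 1, gave -0.05, -0.15 and -0.08. With the mean of the 3 probe sets the differences were 0.31, 0.21 and 0.28 and none passed (adjusted p = 0.381, 0.457 and 0.469). With median centring they were 0.15, 0.27 and 0.14 and none passed. For MCA the call was also lost without DMSO replicate 3 (adjusted p = 0.0636) or MCA replicate 2 (adjusted p = 0.0631).

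The lower gene with DAT was Plk1, at 2962, 2774 and 2815 with DMSO and 2059.8, 1872 and 2024 with DAT. The groups did not overlap, and the difference was -0.49 ± 0.12 (adjusted p = 0.0120). The call was lost without DMSO replicate 1 (adjusted p = 0.0546) or DAT replicate 2. With BaP and MCA Plk1 gave -0.27 ± 0.12 and -0.25 ± 0.12, neither past the threshold. With the replicate block 6 genes passed for DAT, where Ccna2 at -0.33, Aurka at -0.30, Prc1 at -0.20 and Cenpa at -0.19 joined. The 5 lower among them are near the share of all genes, of which 11.1% were lower in that fit. For BaP 2 passed with the block, where Plk1 joined and 4.89% of all genes were lower. Cdkn1a rose by 1.35 ± 0.23 with DAT and by 1.01 ± 0.23 with BaP, and gave 0.69 ± 0.23 with MCA (adjusted p = 0.155). For Cdk1 the 95% interval of the difference ran from -0.28 to 0.16 with DAT and from -0.20 to 0.24 with MCA.

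At 120 h in approach 2, most of the 39 genes lay below DMSO, and few passed in the fit without the replicate block. With the block 32 were lower for AAF, 14 for BaP and 19 for MCA. Of all 12635 genes, 536, 487 and 566 were lower in that fit. AAF at 10 µM left all 39 genes below zero with a median of -0.40, and 5 were lower past the threshold, where 0.380% of all genes tested were lower. BaP at 0.1 µM gave a median of -0.26 with 38 below zero and 2 lower genes, against 0.483% of all genes. MCA at 0.1 µM gave a median of -0.29 with 38 below zero and 3 lower genes, against 1.16%. DAT at 0.2 µM gave a median of -0.05, with Ect2 lowest at -0.52, and 0 genes in limma, against 0% of all genes. At an unadjusted p under 0.05 it gave 3, against 641 of the 12635 genes tested. With the replicate block 2 were lower, against 0.665% of all genes. For AAF, BaP and MCA the counts at an unadjusted p under 0.05 were 32, 12 and 17. Of all 12635 genes, 1148, 1388 and 1336 were under it. The 4 comparisons share 3 DMSO arrays, which spread widely. The median of the 39 genes on them, measured from 24 h, was -2.04, -1.80 and -1.42, and the highest was that of replicate 3. In the same order of replicates it was -2.40, -2.17 and -1.99 with AAF and -2.02, -2.07 and -1.94 with BaP. It was -2.07, -2.10 and -2.03 with MCA and -1.90, -1.93 and -1.71 with DAT. Leaving out 1 DMSO array leaves the treated array of the same number without a pair. Without DMSO replicate 3 the median against DMSO was -0.26 for AAF, -0.08 for BaP with 28 genes below zero, -0.13 for MCA, and 0.10 for DAT with 29 genes above zero. Without DMSO replicate 1 these medians were -0.58, -0.36, -0.48 and -0.21.

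With AAF the 5 lower genes were Spc25, Cenpe, Bub1, Tpx2 and Top2a. Spc25, of the Ndc80 complex, read 586, 587 and 729 with DMSO and 364, 434 and 408 with AAF, a difference of -0.70 ± 0.13 (adjusted p = 0.00956). Cenpe, a kinesin at the kinetochore, read 742, 785 and 953 with DMSO and 504, 576 and 585 with AAF, a difference of -0.62 ± 0.12 (adjusted p = 0.00997). Neither pair of groups overlapped. Bub1 and Tpx2, the activator of Aurora A, gave -0.62 ± 0.12 and -0.62 ± 0.15, and Top2a gave -0.32 ± 0.07. Other probe sets of these genes did not all follow. The other Spc25 one gave 0.34, and the other Tpx2 ones gave -0.19, -0.155 and -0.06. Those of Cenpe and Bub1 gave -0.96 and -0.50, and those of Top2a -0.41 and -0.33. With the mean of a gene's probe sets 0 of the 39 genes passed. The count of lower genes was 0 without DMSO replicate 3 or without AAF replicate 1, 12 without AAF replicate 3 and 16 without DMSO replicate 1. The share of all genes lower in those fits is not given here. With the replicate block the count was 32, where 4.24% of all genes were lower. The change of the AAF response between 24 h and 120 h had a median of -0.36, and 0 genes passed in limma, against 0% of all genes. At an unadjusted p under 0.05 the count was 15, against 497 of the 12635 genes tested. With the block 7 were lower, against 0.459% of all genes.

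Cdc20 gave the widest differences with the hydrocarbons. It read 2037, 3374 and 3770.2 with DMSO, 1927, 1685 and 1807 with BaP and 1572, 1499.9 and 1864 with MCA. All 6 treated arrays lay below the 3 DMSO arrays, which themselves spread widely. The differences were -0.76 ± 0.16 with BaP (adjusted p = 0.00814) and -0.90 ± 0.16 with MCA (adjusted p = 0.000864). Its other 2 probe sets gave -0.37 and -0.91 with BaP and -0.45 and -1.51 with MCA. Cenpe read 548, 609 and 625 with BaP and 650.1, 479.7 and 498 with MCA, at -0.47 ± 0.12 (adjusted p = 0.0364) and -0.63 ± 0.12 (adjusted p = 0.00154), and the call with BaP was lost when any of 5 of the 6 arrays was left out. Plk1 was the last gene to pass with MCA, at -0.45 ± 0.12 (adjusted p = 0.0498), and its call was lost when any of 5 of the 6 arrays was left out. With the replicate block 19 genes were lower for MCA, against 4.48% of all genes. Without DMSO replicate 1 the count was 9 for MCA and 5 for BaP, and without DMSO replicate 2 or 3 it was 0 for BaP. The share of all genes called in those fits is not given here. The call for Cdc20 with BaP was lost with median centring (adjusted p = 0.447), with the compared arrays alone (adjusted p = 0.239) and with the mean of its probe sets (-0.68, adjusted p = 0.200). That with MCA was lost under the first pair of these (adjusted p = 0.153 and 0.144).

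BaP and MCA were given at the same 0.1 µM for 120 h, which allowed the related hydrocarbons to be compared directly as 1 pair. In limma 0 of the 39 genes differed, against 0.0791% of all genes tested, and 0 passed with the replicate block. An unadjusted p under 0.05 was found for 0 of them, against 403 of the 12635 genes tested. The median of BaP minus MCA was 0.02, and single genes ran from -0.16 for Ect2 to 0.35 for Ccnb2, with a lowest adjusted p of 0.9997. In the fit without the replicate block the 95% interval was -0.20 to 0.24 for Cdk1 and -0.19 to 0.46 for Cdc20. Differences within these bounds remain compatible with the data.

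At 120 h in approach 2, 7 of 62 further mitosis genes were lower with AAF, against 0.380% of all genes tested. With BaP 1 was lower, against 0.483%, with MCA 3, against 1.16%, and with DAT 0, against 0%. The lowest was Shcbp1 with AAF, at -0.80, and Kif20b, a motor of cytokinesis, was lowest with BaP and MCA, at -0.72 and -0.68. The actin 3' to 5' log2 ratio of these groups was 0.54 ± 0.12 with DMSO, 0.62 ± 0.20 with AAF, 0.54 ± 0.18 with BaP, 0.51 ± 0.12 with DAT and 0.58 ± 0.18 with MCA (SD, n = 3), and the groups overlapped.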

How the data were processed

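Biotin-labelled RNA was hybridised, per the labels' protocols. The submitters' processing notes list GCOS, with no version. The authors deposited 1 linear intensity for each of 45101 probe sets on 60 arrays. How background, summarization and scaling were handled is not given in the sources used here. In all, the platform table gave 34958 probe sets 1 gene symbol, of which 204 kept an old one. It gave 932 several symbols and did not list 9211, and neither kind was used. The brightest probe set stood for each of 18194 genes, and testing required it to exceed the array median on at least 3 arrays.

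Values were log2(intensity + 16), which understates changes of dim genes, quantile normalized within each approach. limma 3.58.1 in R 4.3.3 fitted 10 group means per approach with 20 residual degrees of freedom, using its trend option. P-values were two-sided and Benjamini-Hochberg adjusted over 12635 genes. The fits were also run on simulated data with independent noise on each array. Those data lacked the pairing described below, so they do not show how the fits perform with it. The members, the gene lists and the tests were chosen with earlier results of these data known, and reading each probe set of a member on its own was added after seeing the data. By rule, members were named for the lowest adjusted p, the largest or the smallest change. Members named for their role, and other mitosis genes named for the treatments, were chosen after their values were seen.

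The labels number the 3 arrays of a group without saying what a number shares. In 14 of 19 direct comparisons all 3 same-numbered pairs had deviations from their group means that correlated above 0.1. For these the blocked value is printed wherever it changed a call. That pairing comes from the data. Intervals are 95% limits, and the number of arrays limits the precision.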

Additional observations from a re-analysis of the deposited data

Results flagged for a closer look

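A single rule picked out 3 results, the change of a chemical's response between 24 h and 120 h in approach 1. The difference from DMSO at 120 h exceeded that at 24 h past the threshold for 39 of the 39 mitosis genes with BaP, with a median change of 0.70. The same count, 39, was found with DAT at a median of 0.83, and 39 with MCA at a median of 1.25. The 3 results share their DMSO arrays at both times. Groups of 3 arrays are too small for the outlier check, which was not applied.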

How the results depend on the processing

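The alternatives were pseudocounts of 1 and 64, no filter and a filter on the mean, deposited values without normalization, median centring, quantile normalization over all 60 arrays, 1 fit of all 60 arrays, the compared arrays alone, the mean of a gene's probe sets, the replicate block and leaving out 1 array. No named member past the threshold reversed its direction under any of them. The counts of 39 in both DMSO time comparisons and at 120 h with BaP, DAT and MCA in approach 1 stayed within 1.5 times under all of them. So did the counts of 39 for the change of response, which were 27 for BaP and 33 for DAT in the fit of all 60 arrays, and 33, 35 and 38 for BaP, DAT and MCA with the mean of probe sets. The smaller counts depended on the processing, and where a lone array or normalization decided them the cause was not tested.

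For BaP at 24 h in approach 1 the count of 2 became 1 with a pseudocount of 1, without the filter, without normalization, with median centring, with quantile normalization over all arrays, in the fit of all 60 arrays and with the mean of probe sets. For MCA at 24 h in approach 1 the count of 1 became 0 without normalization, with median centring, with the mean of probe sets and with the compared arrays alone. For AAF at 120 h in approach 1 the count of 1 became 0 with these 4 settings, with a pseudocount of 64, without the filter and in the fit of all arrays. In approach 2 at 24 h the counts became 0 for BaP without normalization, with median centring, with the mean of probe sets and with the compared arrays alone, 0 for MCA with the last 3 of these, and for DAT 0 with median centring and 1 with the mean of probe sets. In approach 2 at 120 h the count for AAF became 19 in the fit of all arrays, 3 without normalization and 0 with median centring, the mean of probe sets or the compared arrays alone. There BaP became 5 in the fit of all arrays and 0 with those last 3 settings, and MCA became 12 in the fit of all arrays and 0 with median centring or the compared arrays alone. In the fit of all arrays 200, 184 and 338 of all 12635 genes were lower with AAF, BaP and MCA.

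With the replicate block the counts were 5 for BaP, 2 for MCA and 2 for AAF at 120 h in approach 1, the first pair at 24 h. In approach 2 they were 2 for BaP and 6 for DAT at 24 h, and 32 for AAF, 14 for BaP, 2 for DAT and 19 for MCA at 120 h. For the change of the AAF response they were 1 in approach 1 and 7 in approach 2. Of all 12635 genes, 295 were higher in that fit with MCA at 24 h in approach 1. With BaP at 120 h in approach 2, 487 of all genes were lower. The block moved no other count. For MCA at 24 h in approach 1 and for BaP and DAT at 120 h in approach 2 the numbers did not pair all 3 arrays.

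Leaving out 1 array at a time gave 39 to 39 genes in both time comparisons, for BaP, DAT and MCA at 120 h in approach 1 and for the change with DAT and MCA, and 35 to 39 for the change with BaP, lowest without DMSO replicate 1 of 120 h. It gave 1 to 2 for BaP and 0 to 1 for MCA at 24 h and 0 to 7 for AAF at 120 h in approach 1. In approach 2 it gave 1 to 1 for BaP, 1 to 2 for DAT and 0 to 1 for MCA at 24 h, and 0 to 16 for AAF, 0 to 5 for BaP and 2 to 9 for MCA at 120 h. It gave 0 to 0 wherever the count was 0. The shares of all genes called with 1 array left out are not given here, so these ranges have no background beside them. Approach 2 spread more than approach 1, so small differences there are the less certain. The median of the 39 genes in approach 2 changed sign for BaP at 24 h, from 0.01 to -0.14 with median centring, -0.03 without normalization and -0.02 with the mean of probe sets. It also fell just below zero when some single arrays were left out. For DAT at 120 h it changed from -0.05 to 0.02 with median centring and to 0.10 without DMSO replicate 3. Median centring moved the 24 h medians of AAF from -0.04 to -0.17 and of MCA from -0.03 to -0.23.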
